A study of Homo sapiens with 8 samples.

Results

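The leukocyte immunoglobulin-like receptor (LILR) cluster on chromosome 19q13 was described here by its histone marks in HL-60 cells with and without all-trans retinoic acid (ATRA). It held 10 of the 20098 protein-coding genes, namely LILRB3, LILRA6, LILRB2, LILRA5, LILRA4, LAIR1, LILRA2, LILRA1, LILRB1 and LILRB4, in their order along the chromosome. The genes were listed by name and chosen by their peak lengths in these libraries, so every value below is a description and none was tested. Each gene was measured as the length in bp under peaks from 5 kb before to 5 kb after the gene, its window, and by whether a peak covered its transcription start site (TSS), the 5′ end of its representative transcript.

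HL-60 cells, an established human myeloid leukemia line, become granulocyte-like upon ATRA induction. ATRA-treated cells received 1 µM ATRA for 4 days, control cells received the same volume of ethanol, its solvent, and the medium and the agent were renewed on day 2. No other agent or genetic change was named for either group, and all libraries came from this 1 line. Chromatin was pulled down with antibodies against H3K4me3 or H3K27ac, with 2 ATRA and 2 control libraries for each mark and 8 in all. The labels did not say whether the replicates came from separate cultures.

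LILR proteins are surface receptors of myeloid and other immune cells that bind MHC class I molecules and other ligands. The LILRB receptors carry inhibitory motifs (ITIMs) in their cytoplasmic tails, which recruit the phosphatases SHP-1 and SHP-2. Most LILRA receptors have short tails and signal through the activating adaptor FCER1G, and LAIR1 is an inhibitory receptor for collagens. H3K4me3 marks the promoters of active genes, and H3K27ac marks active promoters and enhancers.

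Peaks were fewer and shorter in some control libraries. The H3K4me3 libraries had 16258 and 16487 peaks in the ATRA-treated cells and 16160 and 13241 in the control, over 47.7 to 63.2 Mb. The H3K27ac libraries had 28200 and 39332 peaks in the ATRA-treated cells and 15457 and 29614 in the control, over 64.8 and 86.1 Mb against 28.8 and 54.0 Mb. Control H3K4me3 replicate 2 and control H3K27ac replicate 1 thus stood below the others, and values without them are given beside the results that they moved most. Genome-wide, the log2 ratio of mean peak length, ATRA over control, was 0.22 for H3K4me3 and 0.87 for H3K27ac. Read counts were not used here, so the depth of each peak is unknown. More cells with a mark and more of the mark per cell cannot be told apart in these bulk libraries.

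The promoters of 4 receptors were alike in sequence and differed in their marks, and they are shown for that reason. Each is the 300 bases of GRCh37 from 250 bases before the TSS, in the sense of the gene, with the bases that differ from the LILRB2 promoter in a pairwise alignment in capitals. LILRB2 is on the minus strand at chr19:54784916-54785215, LILRA1 on the plus strand at chr19:55104847-55105146, LILRB1 on the plus strand at chr19:55141685-55141984, and LILRA5 on the minus strand at chr19:54824387-54824686.
LILRB2: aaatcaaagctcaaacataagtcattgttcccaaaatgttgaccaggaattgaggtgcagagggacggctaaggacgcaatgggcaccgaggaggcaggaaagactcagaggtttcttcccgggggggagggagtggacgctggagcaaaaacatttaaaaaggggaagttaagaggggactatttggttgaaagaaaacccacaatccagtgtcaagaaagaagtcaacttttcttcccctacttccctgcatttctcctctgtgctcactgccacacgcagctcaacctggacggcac
LILRA1: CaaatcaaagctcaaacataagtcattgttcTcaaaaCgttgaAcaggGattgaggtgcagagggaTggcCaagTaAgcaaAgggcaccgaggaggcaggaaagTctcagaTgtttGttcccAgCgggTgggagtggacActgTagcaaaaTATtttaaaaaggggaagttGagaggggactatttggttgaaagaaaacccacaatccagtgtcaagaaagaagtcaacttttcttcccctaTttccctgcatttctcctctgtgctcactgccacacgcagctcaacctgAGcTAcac
LILRB1: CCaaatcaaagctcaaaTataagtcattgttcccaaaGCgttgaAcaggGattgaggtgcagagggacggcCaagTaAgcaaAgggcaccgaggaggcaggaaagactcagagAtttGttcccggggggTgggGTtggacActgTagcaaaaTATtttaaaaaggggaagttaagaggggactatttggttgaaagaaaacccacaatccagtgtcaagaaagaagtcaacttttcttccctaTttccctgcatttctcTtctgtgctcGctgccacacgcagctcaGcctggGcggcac
LILRA5: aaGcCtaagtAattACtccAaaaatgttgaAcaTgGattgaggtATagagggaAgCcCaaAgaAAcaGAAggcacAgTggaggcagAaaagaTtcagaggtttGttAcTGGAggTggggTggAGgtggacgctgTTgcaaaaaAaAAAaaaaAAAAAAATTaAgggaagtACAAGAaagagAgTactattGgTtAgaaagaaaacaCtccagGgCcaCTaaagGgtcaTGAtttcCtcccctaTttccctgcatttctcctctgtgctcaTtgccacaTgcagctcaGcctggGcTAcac
The LILRA1 promoter was 93.4% identical to that of LILRB1, and both were 90.7% identical to that of LILRB2. LILRA5 shared 70.0% with LILRB2, 70.1% with LILRA1 and 70.5% with LILRB1. Upon ATRA induction, H3K4me3 covered the TSS of LILRB2 and LILRA5 in both libraries, began 286 and 219 bp downstream of the TSS of LILRA1, and came no nearer than 35389 bp to the TSS of LILRB1. The most alike pair, LILRA1 and LILRB1, thus had H3K4me3 over the TSS in no library. LILRB2, 90.7% identical to each of them, had it there in both ATRA libraries. Words of 32 bases that also occur elsewhere in the genome, where short reads may not be placed with certainty, began at 37.7% of the positions in the LILRB2 promoter, 28.7% in LILRA1, 24.3% in LILRB1 and 1.0% in LILRA5. Their part in these results was not tested.

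LILRA5 and LILRB2 were the members with the clearest difference in H3K4me3. LILRA5 encodes an activating receptor without a long cytoplasmic tail, and lies on the minus strand at chr19:54818353-54824436. Its window held 9667 and 8743 bp under H3K4me3 peaks in the ATRA-treated cells and 0 bp in both control libraries. A peak of 9384 bp in ATRA replicate 1 ran over the whole gene, from position 54816834 to 54826217, and 1 of 6005 bp in replicate 2 covered the TSS and ended within the gene. In control cells the nearest H3K4me3 peak was 21991 and 22036 bp upstream of the TSS, inside LILRA4. The log2 ratio of the mean lengths was 3.35 with 1000 bp added to each, and the difference in mean length ranked 46 among the 20098 genes.

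H3K27ac in the LILRA5 window was likewise seen in the ATRA-treated cells, with 5103 and 10549 bp against 0 bp in both control libraries (log2 ratio 3.14). Most of this length lay in the flanks. The log2 ratio was 1.34 without flanks and 1.77 in the 2 kb on either side of the TSS. The TSS was covered in ATRA replicate 2 by a peak of 3959 bp, whereas in replicate 1 a peak of 960 bp ended 176 bp downstream of it. Within 500 bp of the TSS, H3K27ac was found in both ATRA libraries and neither control library.

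LILRB2 encodes an inhibitory receptor of monocytes, macrophages and dendritic cells that binds MHC class I. Its window, around the gene at chr19:54777666-54785039, held 5634 and 3775 bp of H3K4me3 in the ATRA-treated cells against 1206 and 0 bp in the control, a log2 ratio of 1.83. Its difference in mean length ranked 279 among all genes. The ATRA peaks over the TSS were 5634 and 3368 bp long. The only control peak, of 1206 bp in replicate 1, lay inside the gene and ended 128 bp downstream of the TSS. LILRB2 thus did not count as marked in ATRA only when every protein-coding TSS of a gene was used, or when peaks within 500 bp were accepted. H3K27ac showed the same order, with 4512 and 7560 bp in the ATRA-treated cells against 0 and 809 bp (log2 ratio 2.32). Peaks of 4512 and 5239 bp covered the TSS in the ATRA libraries, and the control replicate 2 peak nearest to it was 458 bp long and lay 336 bp downstream.

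**Figure D1:**
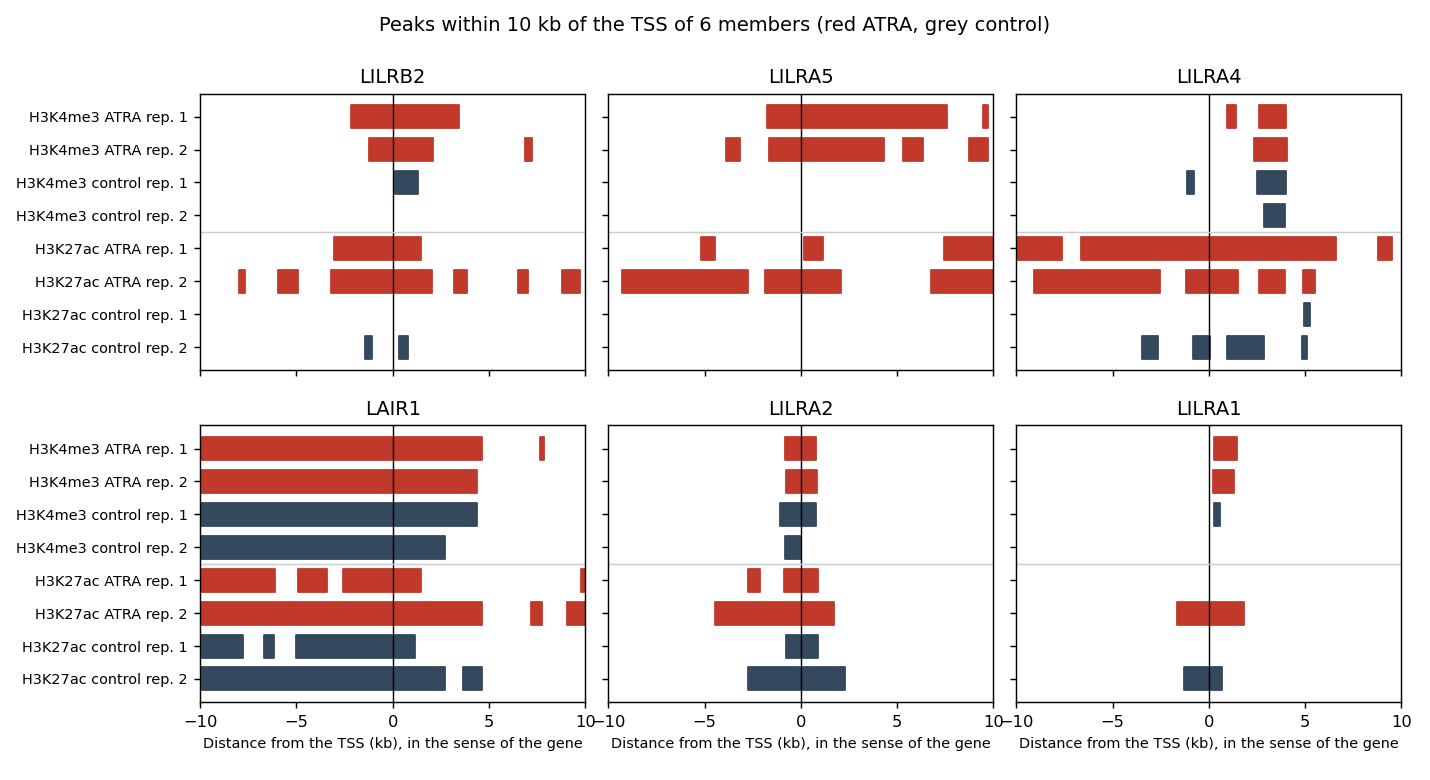
Peaks within 10 kb of the TSS of 6 members, with 1 row for each library (red, ATRA; grey, control) and the distance from the TSS in kb on the horizontal axis, positive towards the 3′ end of the gene. H3K4me3 lies over the LILRB2 and LILRA5 TSS in the ATRA rows alone, over the LAIR1 TSS in every row, and beside the LILRA1 TSS in 3 of 4 rows.

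Counted over all members, H3K4me3 was longer in both ATRA libraries than in both control libraries in 4 of the 10 windows (LILRB2, LILRA5, LILRA2 and LILRA1), and in 0 windows was it shorter. Over all genes, 26.5% of windows were longer and 2.71% were shorter by the same rule. H3K4me3 covered the TSS in both ATRA libraries and neither control library at 2 members, LILRB2 and LILRA5, a pattern found at 52 genes or 0.259% of all. Since the members were chosen with these values known, nothing is read from these shares. The reverse pattern was found at 0 members and 0.124% of all genes. In 6 members no library had H3K4me3 over the TSS, against 45.7% of all genes.

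H3K27ac was longer in both ATRA libraries in 6 of 10 windows (LILRB3, LILRA6, LILRB2, LILRA5, LILRA4 and LAIR1) and shorter in 0, against 28.2% and 2.83% of all genes. LILRB2 was the only member with H3K27ac over the TSS in ATRA alone, a pattern of 3.03% of all genes. The reverse pattern was found at 0 members and 0.433% of all genes, and 4 members had no H3K27ac over the TSS in any library, against 56.5%. LILRB2 and LILRA5 were longer in both marks, as were 11.2% of all genes. The median log2 ratio over the 10 members was 0.31 for H3K4me3 and 0.78 for H3K27ac, and over all genes it was 0.02 and 0.14.

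With the length taken as a share of each library's total, the median over all genes moved from 0.14 to 0.00 for H3K27ac, and 11.9% of the genes were higher and 18.0% lower. For H3K4me3, 10.5% were higher and 16.5% lower. On this scale the same 4 members were higher in H3K4me3 and LAIR1 was lower. In H3K27ac 5 were higher and 0 lower, the 5 being those above without LAIR1. The median log2 ratio over the members was then 0.23 for H3K4me3 and 0.35 for H3K27ac.

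**Figure D2:**
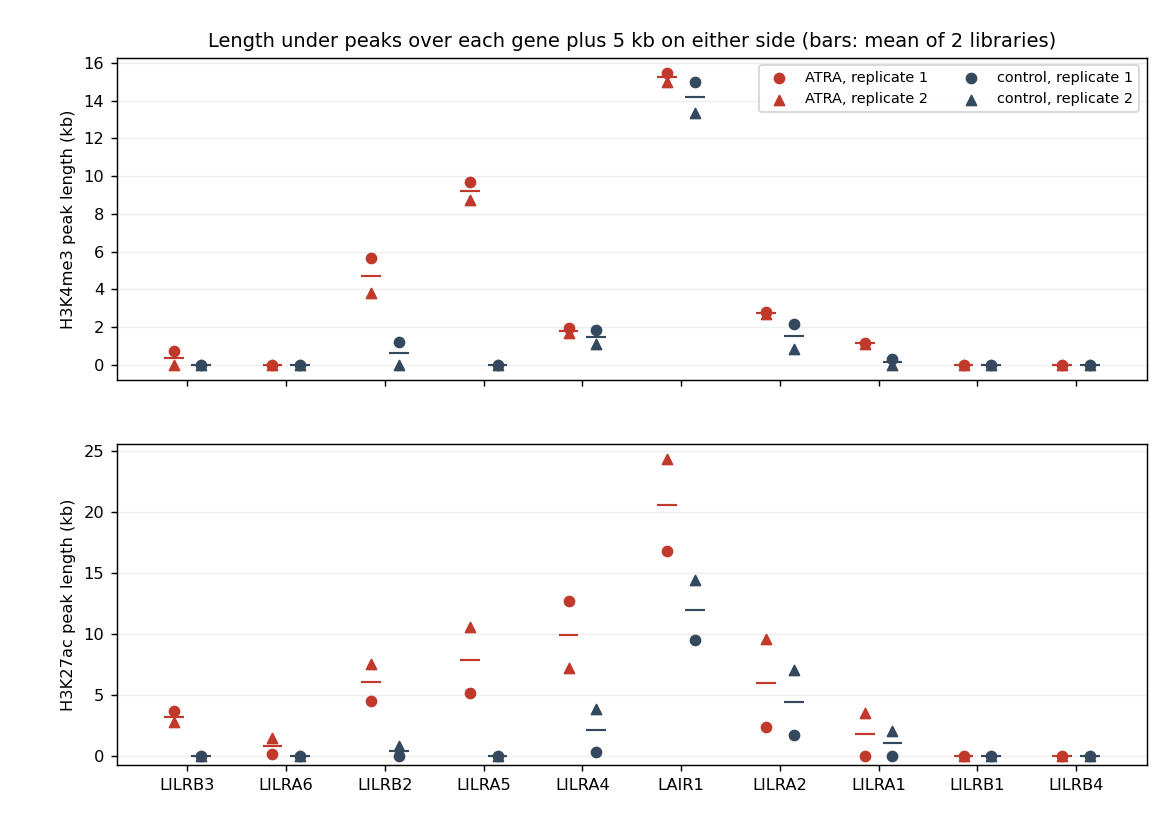
Length under peaks in kb over each gene plus 5 kb on either side, in each library, for H3K4me3 (top) and H3K27ac (bottom). Circles are replicate 1, triangles replicate 2, bars the mean of the 2 libraries, red ATRA and grey control. For LILRA5 both ATRA libraries lie above 0 and both control libraries at 0 in either mark, whereas the LAIR1 H3K4me3 values overlap and LILRB1 and LILRB4 are at 0 throughout.

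Among the inhibitory receptors, LAIR1 had the longest marks of the cluster in both conditions. Its H3K4me3 window held 15482 and 14997 bp in the ATRA-treated cells and 15013 and 13364 bp in the control, so the groups overlapped (log2 ratio 0.10), although both pairs of the same number were longer in ATRA. As a share of the library total, both ATRA libraries were lower. It was the only member whose TSS lay under H3K4me3 in all 4 libraries, as 50.4% of all genes did, in peaks of 16978, 16744, 20996 and 13936 bp that reached to both sides of it. Its H3K27ac window held 16767 and 24356 bp in the ATRA-treated cells against 9531 and 14379 bp in the control (log2 ratio 0.73). The groups did not overlap, but the log2 ratio was -0.13 when the length was a share of the library total.

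LILRB3, an inhibitory receptor of myeloid cells, and LILRA6, whose extracellular part is very like it, had little H3K4me3. LILRB3 held 702 bp in ATRA replicate 1 and 0 bp in the other 3 libraries, all of it in the flank beyond the 3′ end of the gene, and LILRA6 held 0 bp in all 4. H3K27ac measured 3673 and 2745 bp in the LILRB3 window in the ATRA-treated cells and 0 bp in both control libraries (log2 ratio 2.07). Most of it came from peaks of 14910 and 14514 bp that lay over the TSS of the ribosomal protein gene RPS9 and reached into the 3′ flank. Inside the LILRB3 gene itself, a peak of 981 bp was called in ATRA replicate 1 alone. LILRA6 had 126 and 1427 bp of H3K27ac against 0 and 0 bp (log2 ratio 0.83), all of it in its flanks.

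These closely similar genes are the least certain of the cluster. In the 2 kb on either side of the TSS, repeated 32-base words made up 83.1% at LILRA6 and 74.6% at LILRB3, and 14.9% to 35.9% at the other members. LILRA6 shared 59.3% of its words with LILRB3. How reads with several matches were placed is not given in the sources used here, so 0 bp at these genes is not evidence that a mark was absent.

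LILRB1, a receptor of many immune cell types that binds MHC class I, and LILRB4, which is found on monocytes and antigen-presenting cells, had no peak of either mark in any of the 8 libraries. No peak lay in the 53.2 kb from the start of LILRB1 to the end of LILRB4. An empty window was not rare, since 34.0% of all genes had none of the H3K4me3 libraries and 30.3% none of the H3K27ac libraries with a peak. Repeated words made up 29.4% of LILRB1 and 19.7% of LILRB4, where the 10 members ranged from 16.9% to 68.4%. Their part in the empty windows was not tested.

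Among the other activating receptors, LILRA4 and LILRA2 were marked in both conditions. LILRA4, known as ILT7 of plasmacytoid dendritic cells, had 1919 and 1693 bp of H3K4me3 in the ATRA-treated cells and 1858 and 1098 bp in the control, which overlapped (log2 ratio 0.18), although both pairs of the same number were longer in ATRA. The main peak lay inside the gene in all 4 libraries, from position 54846376 to 54848068 in ATRA replicate 2, and 0 libraries had H3K4me3 over the TSS. H3K27ac was 12662 and 7155 bp in the ATRA-treated cells against 309 and 3840 bp in the control (log2 ratio 1.83, and 1.17 without control replicate 1). It covered the TSS in both ATRA libraries, with peaks of 13228 and 2739 bp, and in control replicate 2 with a peak of 892 bp.

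LILRA2, an activating receptor of monocytes and granulocytes, had 2778 and 2680 bp of H3K4me3 against 2176 and 822 bp (log2 ratio 0.58). A peak of 1614, 1582 and 1855 bp covered the TSS in both ATRA libraries and control replicate 1. In control replicate 2 the peak of 822 bp ended 15 bp before it. All 4 libraries thus had H3K4me3 at or next to the promoter. LILRA2 counted as longer only through the peaks of LILRA1 in its flank, and it did not without flanks or in the 2 kb on either side of the TSS, where the log2 ratio was 0.15. Its H3K27ac was longest in both libraries numbered 2, with 2356 and 9535 bp in the ATRA-treated cells and 1702 and 7029 bp in the control (log2 ratio 0.37). The groups overlapped, although both pairs of the same number were longer in ATRA, and the ratio was -0.21 without control replicate 1 and -0.30 as a share of the library total. All 4 libraries had a peak over the TSS.

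LILRA1, an activating receptor that binds MHC class I, had short H3K4me3 peaks just inside the gene. They measured 1164 and 1098 bp in the ATRA-treated cells, 321 bp in control replicate 1 and 0 bp in control replicate 2 (log2 ratio 0.88). The groups did not overlap, yet the peaks also lay within the flank of LILRA2 and were counted for both genes. H3K27ac was seen in the libraries numbered 2 only, at 3513 bp in ATRA and 2004 bp in control, and at 0 bp in both libraries numbered 1. The log2 ratio was 0.46, and -0.12 without control replicate 1.

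**Figure D3:**
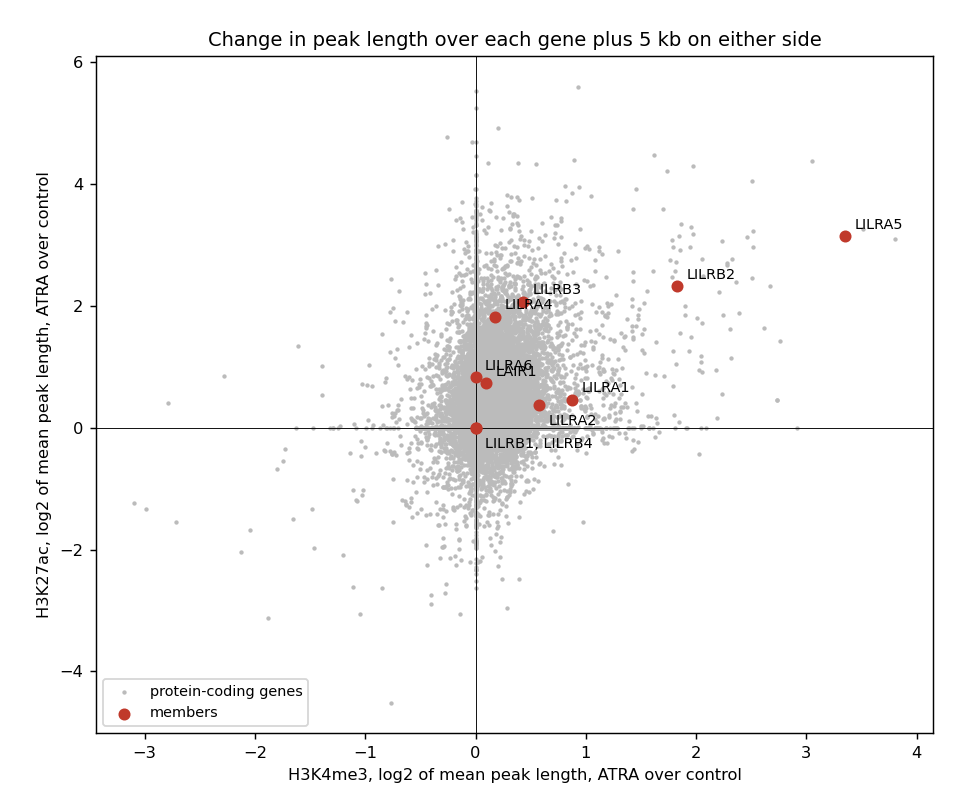
Log2 ratio of the mean peak length, ATRA over control with 1000 bp added, for H3K4me3 (horizontal) and H3K27ac (vertical) in the windows of 20098 protein-coding genes (grey) and the 10 members (red). LILRA5, at 3.35 and 3.14, and LILRB2, at 1.83 and 2.32, stand to the upper right, and LILRB1 and LILRB4 are at 0 on both axes.

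Along the chromosome, the members fell into 2 parts that differed in their marks. The part from LILRB3 to LAIR1, 162.0 kb on the centromeric side with its 6 members on the minus strand, had 17.1% and 14.9% of its length under H3K4me3 in the ATRA-treated cells and 8.07% and 5.84% in the control (log2 ratio 1.14). For H3K27ac these shares were 25.2% and 37.8% against 4.00% and 8.88% (log2 ratio 2.18). The part from LILRA2 to LILRB4 spanned 97.4 kb, with its 4 members on the plus strand. There 2.85% and 2.75% lay under H3K4me3 in ATRA and 2.02% and 0.844% in control (log2 ratio 0.64, against 0.22 genome-wide). The H3K27ac shares of this part, 1.82% and 6.27% in ATRA and 1.75% and 5.30% in control, overlapped (log2 ratio 0.16, against 0.87 genome-wide).

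The stretch between the parts, 202.0 kb from LAIR1 to LILRA2, held genes outside the list and was marked in all 8 libraries. There the log2 ratio was 0.00 for H3K4me3, with 12.9% and 13.1% of the length covered in the ATRA-treated cells and 15.8% and 10.1% in the control, and 0.24 for H3K27ac. Both were below the genome-wide ratios.

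Much of the H3K27ac in the ATRA-treated cells lay between the listed genes. The 12.6 kb between LILRA4 and LAIR1 was covered to 83.1% and 81.5% in the ATRA-treated cells and to 0.00% and 13.1% in the control, while H3K4me3 was 0.00% there in both ATRA libraries and 2.91% and 0.00% in the control. Between LILRA5 and LILRA4, 17.7% and 55.9% of 20.0 kb lay under H3K27ac against 0.00% in both control libraries. Between LILRB2 and LILRA5, 25.2% and 34.4% of 33.3 kb did so, against 0.00% and 2.16%. In each of these stretches both ATRA libraries were above both control libraries for H3K27ac, the mark whose total length was also longer in the ATRA libraries.

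**Figure D4:**
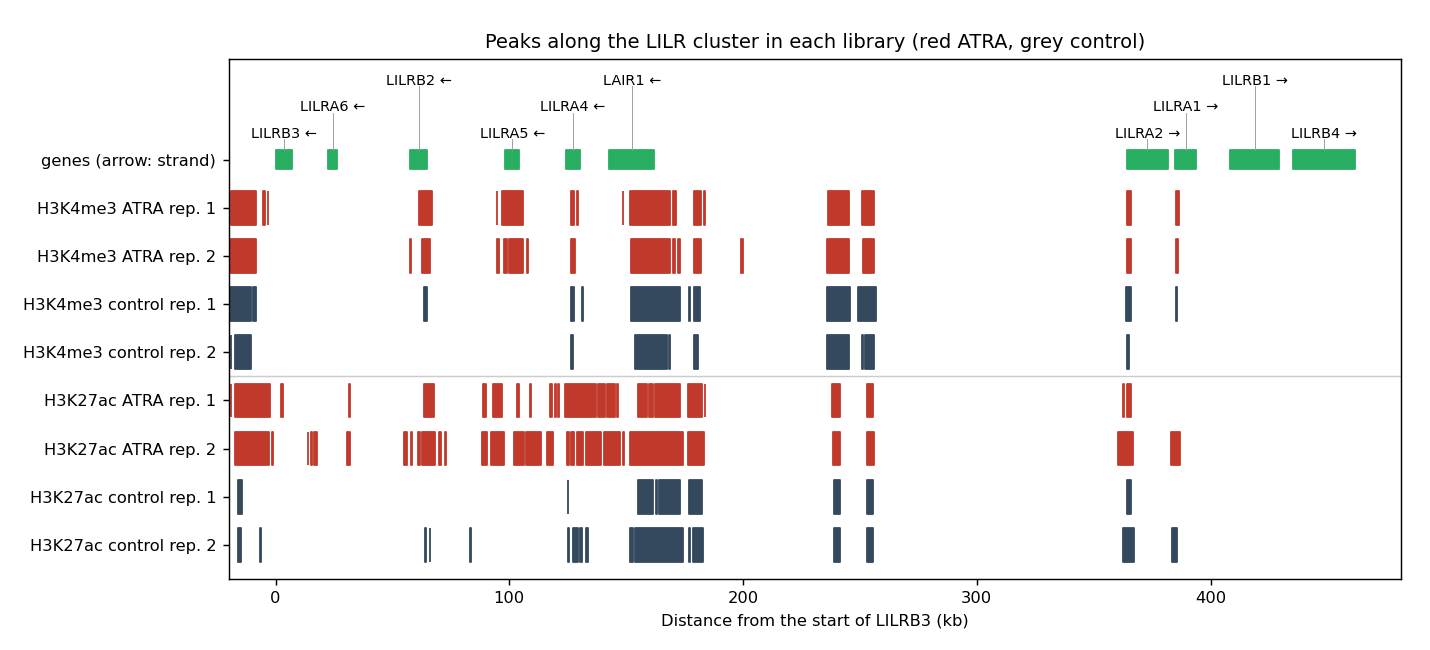
Peaks along the cluster, with 1 row for each library (red, ATRA; grey, control), the 10 genes in green with arrows for their strand, and the distance from the start of LILRB3 in kb. Between LILRB2 and LAIR1 the ATRA rows hold H3K27ac peaks over most intervals where the control rows are empty or nearly so, and no row has a peak over LILRB1 or LILRB4.

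In bins of 10 kb from LILRB3 to LILRB4, 22 of 46 held H3K27ac in some library. In 12 of these, or 54.5%, both ATRA libraries were above both control libraries, and in 0 were they below, against 28.6% and 4.22% of the bins with a peak in the whole genome. For H3K4me3, 17 bins held a peak and 6 of them, or 35.3%, were higher in ATRA and 0 lower, against 32.2% and 5.42% in the genome. The bins of 1 peak are not independent.

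Summed over the union of the 10 windows, H3K4me3 covered 36182 and 31888 bp in the ATRA-treated cells and 20253 and 15284 bp in the control. The log2 ratio was 0.90, and 0.81 and 1.01 within the libraries numbered 1 and 2. Without control replicate 2, the library with the fewest H3K4me3 peaks, it was 0.72. H3K27ac covered 45199 and 63511 bp against 11542 and 26057 bp, a log2 ratio of 1.48, and 1.88 and 1.25 within replicate numbers. Without control replicate 1, the H3K27ac library with the fewest peaks, it was 1.03, and as a share of the library total it was 0.68.

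Few H3K27ac peaks reached a −log10 q of 5 by the deposited significance, in the cluster and in the genome alike. Genome-wide, 15.0% and 16.9% did so in the ATRA libraries and 16.8% and 12.8% in the control libraries. For H3K4me3 the genome-wide share was 80.2% to 87.4%. The windows held 18 and 21 H3K27ac peaks in the ATRA-treated cells and 5 and 10 in the control, of which 0, 3, 0 and 0 reached a −log10 q of 5. With these alone, 0 members were longer in H3K27ac upon ATRA induction. The windows held 11 and 10 H3K4me3 peaks in the ATRA-treated cells and 6 and 3 in the control, and 10, 10, 4 and 3 reached that threshold. With these, LILRB2, LILRA5 and LILRA2 were longer and LILRA1 was not.

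The promoters of the members were poor in CpG sites. They held 1 (LILRA5) to 11 (LILRA4) CpG in 300 bases, where the median of all 20098 promoters was 23, and their GC content was 43.3% (LILRA5) to 62.3% (LILRA6) against a median of 63.7%. LAIR1, with H3K4me3 over the TSS in all libraries, had 10 CpG. LILRB2 and LILRB1, with and without the mark, had 7 each.

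Searched on both strands, AGGAAG, the core of sites for PU.1 and other ETS factors, occurred in 4 member promoters (LILRA6, LAIR1, LILRA2 and LILRB4) and in 32.5% of all promoters. TTGCAA, found in C/EBP sites, occurred in LILRA5 only, at position -116 from the TSS, and in 4.1% of all. It was not in the aligned promoters of LILRB2, LILRA1 and LILRB1 printed above. TGTGGT, found in RUNX sites, occurred in LILRB3 and LILRA2 and in 10.8% of all. In LILRA2 it began at -43, next to an AGGAAG match from -50 that did not overlap it. AGGTCA, the core of nuclear receptor sites, and TATAAA, the TATA box, were in 0 of the 10 promoters and in 11.3% and 9.81% of all.

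The genes through which these receptors signal also had longer H3K27ac upon ATRA induction, though fewer of them did as a share of the library total. Of 8 partners (the adaptors FCER1G and TYROBP, the kinases LYN, FGR and SYK and the phosphatases PTPN6, PTPN11 and INPP5D), 8 had longer H3K27ac in both ATRA libraries, against 28.2% of all genes, and 3 longer H3K4me3 (FCER1G, TYROBP and FGR), against 26.5%. As a share of the library total, 4 were higher and 2 lower in H3K27ac, against 11.9% and 18.0% of all genes. In H3K4me3 3 were higher and 1 lower, against 10.5% and 16.5%. The H3K27ac log2 ratio of TYROBP was 0.34, and -0.60 on that scale. Before that scaling, the median log2 ratio over the partners was 1.30 for H3K27ac and 0.37 for H3K4me3. FCER1G, the adaptor of the LILRA receptors, had 7555 and 7305 bp of H3K4me3 against 3567 and 1687 bp, and 10372 and 8855 bp of H3K27ac against 1700 and 4025 bp. FGR, a Src family kinase of myeloid cells, had 12612 and 8282 bp of H3K4me3 against 0 and 0 bp, and its TSS lay under H3K27ac in ATRA only. No library had H3K4me3 over the FGR TSS, and in the 2 kb on either side of it the H3K4me3 log2 ratio was 0.0. Of 11 ligand genes, 2 were longer in H3K4me3 and 2 in H3K27ac, against 26.5% and 28.2% of all genes. As a share of the library total, 0 were higher and 2 lower in H3K4me3, against 10.5% and 16.5%. In H3K27ac 2 were higher and 3 lower, against 11.9% and 18.0%. FCER1G and TYROBP were named after their values were seen.

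The gene annotation used here held 16 other protein-coding genes in the span and 100 kb on either side. Of these, 5 were longer in H3K4me3 and 8 in H3K27ac upon ATRA induction, where 26.5% and 28.2% of all genes were. As a share of the library total, 2 were higher and 3 lower in H3K4me3, against 10.5% and 16.5% of all genes. In H3K27ac 2 were higher and 2 lower, against 11.9% and 18.0%. LILRB5, a LILR gene between LILRA6 and LILRB2 that was not listed, had no H3K4me3 and 526 and 1324 bp of H3K27ac in the ATRA-treated cells against 0 and 0 bp, in the peaks also counted for LILRA6. TSEN34, a subunit of the tRNA splicing endonuclease, was the only one with H3K27ac over the TSS in ATRA alone, with 8507 and 7450 bp in its window against 3743 and 3731 bp. Its log2 ratio of 0.92 was 0.11 as a share of the library total, where it no longer counted as higher. The median log2 ratio of these neighbours was 0.00 for H3K4me3 and 0.52 for H3K27ac.

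Most markers of the labelled cells carried H3K4me3. Of 8 promyelocyte markers, 5 had it over the TSS in all 4 libraries, PRTN3 in ATRA only, and ELANE and AZU1 in none. ELANE (1152 and 1784 bp against 323 and 0 bp) and PRTN3 (2423 and 4897 bp against 1577 and 1181 bp) were longer in H3K4me3 in both ATRA libraries, and AZU1 in H3K27ac. ELANE counted as longer only through its flanks. Its log2 ratio of 1.09 was 0.0 without flanks and in the 2 kb on either side of the TSS. MPO was shorter in H3K4me3 in both ATRA libraries (15914 and 16557 bp against 16849 and 16627 bp). CTSG was shorter in H3K27ac (903 and 2317 bp against 3207 and 3464 bp). As a share of the library total these calls held, and MPO was also lower in H3K27ac. Of 7 granulocyte markers, 6 had longer H3K4me3 in both ATRA libraries, against 26.5% of all genes. As a share of the library total 5 did, against 10.5%. In H3K27ac 4 were longer, against 28.2%, and 4 as a share, against 11.9%. The H3K27ac groups overlapped at CSF3R, FPR1 and NCF1. The summed H3K4me3 length of the 7 was 45853 and 31803 bp in the ATRA-treated cells and 17991 and 10786 bp in the control. The integrin ITGAM and the oxidase subunit CYBB had H3K4me3 over the TSS in ATRA only, as did ITGAM and the integrin ITGB2 for H3K27ac. No library had H3K4me3 over the TSS of the 4 T cell, 3 NK cell and 4 epithelial markers, nor over 3 of the 4 B cell markers, the exception being CD79A in 3 libraries. The summed H3K4me3 over the T cell markers, at 6041 and 6681 bp against 6892 and 3941 bp, overlapped between the groups, and CD3D and CD3E were at 0 bp. Their H3K27ac sum was 10610 and 10100 bp in the ATRA-treated cells and 0 and 890 bp in the control. The epithelial marker KRT8 was longer in ATRA in both marks, with 750 and 551 bp of H3K4me3 against 0 and 0 bp, and 10049 and 5084 bp of H3K27ac against 663 and 903 bp, while EPCAM and KRT18 were at 0 bp. The part of these markers in the results was not tested.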

How the data were processed

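H3K4me3 and H3K27ac were measured by ChIP-seq in 8 libraries of HL-60 cells, 2 per group. The authors trimmed adapters, used Bowtie for alignment to hg19 and ran MACS2 on each library for broad peaks, without a fragment model. The deposited files hold peak positions in bp, a score, a fold ratio and the −log10 of p and q. The deposited −log10 q served only as a filter. The deposited score was not used, nor were the fold and −log10 p columns, which hold values that these measures cannot take. Read depth is unknown, so the precision rests on 2 libraries per group.

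Peaks on chromosomes 1 to 22 and X were merged within a library and their length in each window was summed. The gene models were those of GENCODE release 44 on GRCh37, with the TSS taken from the Ensembl canonical, else principal, else manual transcript. LILRB3 and LILRA6 have records kept from release 19 that overlap almost wholly, so the span of their manual transcripts was used, a choice made after the annotation was seen. Log2 ratios compare the mean of 2 libraries with a pseudocount of 1000 bp. A gene was called longer when both ATRA libraries were above both control libraries. No test was run, because the members and lists were chosen with earlier results of these data known, and because 2 libraries against 2 allow no exact two-sided permutation p below 0.33. All members were named, and of the neighbour and partner lists the genes whose TSS was marked in 1 condition only. Every other gene named, the markers included, was chosen after its values were seen.

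In the deposited peak names, libraries of the same number have 1 tag in common, and over 75918 bins of 40 kb the deviations of same-numbered ATRA and control libraries from their group means correlated at Pearson's r of 0.223 (H3K4me3) and 0.5565 (H3K27ac). The numbers were therefore read as pairing the libraries. Promoter sequences were read from GRCh37 with samtools 1.23.1, aligned pairwise end to end, and repeated 32-base words were counted over both strands of the genome. Covered lengths and calls were tested on simulated peaks. Protein features of the receptors were planned and not analysed here, and 1 planned list gene is not reported here. Alternatives were other windows, TSS rules, peak filters and scaling, a fit within pairs of the same number, and each library left out in turn. Python 3.11.15, numpy 2.4.6, pandas 2.3.3 and matplotlib 3.10.9 were used.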

Additional observations from a re-analysis of the deposited data

How the results depend on the processing

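Of 66 recomputed summary values, 51 stayed close to the value reported and 15 moved. A log2 ratio was close when it moved by no more than the replicate standard deviation, 0.21 for H3K4me3 and 0.60 for H3K27ac. A count was close up to a fixed ratio, so that 6 members beside 4 in H3K4me3 counted as close. The log2 ratios over the union of the member windows were above 0 under every setting run. The ratio for H3K27ac was 0.68 with the length as a share of the library total and 2.33 at a −log10 q of at least 5, where only ATRA replicate 2 had peaks. Without flanks it was 0.95, and in the 2 kb on either side of the TSS 0.94, beside 1.48 with flanks and 0.87 genome-wide. Members longer in H3K27ac numbered 3 without flanks, 3 in the 2 kb on either side of the TSS (LILRB2, LILRA5 and LILRA4 in both) and 0 at that −log10 q. Members with H3K4me3 over the TSS in ATRA only numbered 1 (LILRA5) with any protein-coding TSS and 1 within 500 bp. For H3K27ac this number was 0 with any TSS, 0 at the stricter −log10 q, 2 with peaks of at least 1 kb and 2 with equal peak numbers (LILRB2 and LILRA4 in both).

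Leaving out a library, or comparing within pairs, relaxes the rule that both ATRA libraries lie above both control libraries and can only add longer windows, so the lowest counts below are fixed by the rule. Leaving out each library in turn gave 4 to 7 members longer in H3K4me3 and 6 to 8 in H3K27ac, and the 7 H3K4me3 members came without ATRA replicate 2. H3K4me3 covered the TSS in ATRA only at 2 to 3 members, with LILRA2 added without control replicate 1. H3K27ac did so at 1 to 2, with LILRA5 added without ATRA replicate 1 and LILRA4 without control replicate 2. The log2 ratios over the windows were 0.72 to 1.11 for H3K4me3 and 1.03 to 2.14 for H3K27ac, the 2.14 without control replicate 2. A lone library was compared as it stood, with no test.

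Within replicate numbers (the replicate block), 6 members were longer in H3K4me3 in both pairs (LILRA4 and LAIR1 added) and 7 in H3K27ac (LILRA2 added), H3K4me3 covered the TSS in ATRA only at 2 and H3K27ac at 1, and the mean log2 ratios were 0.91 and 1.57. Among single genes, the log2 ratio changed sign in 13 of 528 values. Of genes called longer, LAIR1 had -0.13 and TYROBP -0.60 for H3K27ac as a share of the library total. The other 11 were of genes whose groups overlapped, namely LILRA2 and LILRA1 in H3K27ac and LILRA4, LAIR1 and AZU1 in H3K4me3. In all, 126 values moved by more than the spread between replicates without turning a called sign. Causes of these shifts were not tested.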
